A study of Mus musculus with 12 samples.

Results

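The ribosomal RNA (rRNA) of Hepa1c1c7 cells, a mouse hepatoma line, was followed along its whole precursor after knockdown of Eif3m. The 6 cell libraries of a 12-library series were taken by their labels: 3 came from cells given a control siRNA (a scrambled luciferase sequence) and 3 from cells given Eif3m siRNA. Both siRNAs were used at 10 uM for 3 days, in DMEM with heat-inactivated serum, and the RNA of all 6 was nuclear RNA from a purification kit, per the labels. The other 6 libraries are of whole liver RNA of FVB/N mice aged 6 to 8 weeks, given the same kinds of siRNA in lipid nanoparticles at 0.5 mg/kg for 13 days. All 13400 positions of the deposited reference sequence were used. The labels do not say whether the libraries of a group came from separate cultures, so p-values can measure no more than the spread between these libraries, which may be technical.

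Eif3m encodes a subunit of eIF3, the multi-subunit factor that brings the small ribosomal subunit to messenger RNA when translation starts. In the nucleolus, RNA polymerase I transcribes 18S, 5.8S and 28S rRNA as a single long precursor. An external transcribed spacer (ETS) lies at each end of it, and internal transcribed spacers (ITS1 and ITS2) separate the mature segments. Endonucleases cut within the spacers, exonucleases trim the ends, and the excised spacer fragments are degraded. 18S rRNA goes into the small subunit, whose last trimming step, at the 3′ end of 18S, takes place in the cytoplasm. 5.8S and 28S rRNA go into the large subunit and pair with each other there. Depth over a spacer therefore comes from precursors or from fragments not yet degraded, whereas depth over a mature segment holds precursor and finished rRNA together.

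The libraries were made without the step that removes rRNA, and their depth was high. Mean depth per position ran from 10462 to 13375 reads in control libraries and from 13154 to 15537 reads in Eif3m siRNA libraries. The shallowest position of any of the 6 libraries had 2 reads and the deepest 209302. The table holds rRNA positions alone, so neither the level of Eif3m mRNA nor a marker of the cell type could be read from it. No library was left out. Neighbouring positions share reads, and reads without molecular identifiers are not independent molecules.

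No annotation comes with the table, and the ends of the mature segments were placed at steps of the depth profile averaged over all 12 libraries, without regard to group. 18S spanned positions 4006 to 5882, 5.8S 6877 to 7029 and 28S 8121 to 12837, counted from 1 at the start of the reference. The spacers were the 5′ETS (4005 nt), ITS1 (994 nt), ITS2 (1091 nt) and the 3′ETS (563 nt). The largest lasting rise within the 5′ETS, at position 651, divided it into a first part and a rest. Each of the 6 cell libraries was then searched alone, but only within 30 nt of these places, so agreement was partly built in. Within that range the steepest step lay at exactly 4006, 5882, 6877 and 651 in each. The start of 28S lay at 8121 in 5 libraries and at 8122 in Eif3m siRNA replicate 1. The end of 28S was steepest at 12832 in the 3 control libraries and at 12831 in the 3 Eif3m siRNA libraries. Near the end of 5.8S, the steepest fall within 30 nt lay at 7017 in the 3 controls. In the 3 Eif3m siRNA libraries it lay at 6999, the limit of the search. At 7029 itself the step was -0.73, -0.41 and -0.49 (log2) in controls. In the 3 Eif3m siRNA libraries the step at 7029 was 0.089, -0.0079 and 0.030, so no clear fall could be seen there.

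**Figure D1:**
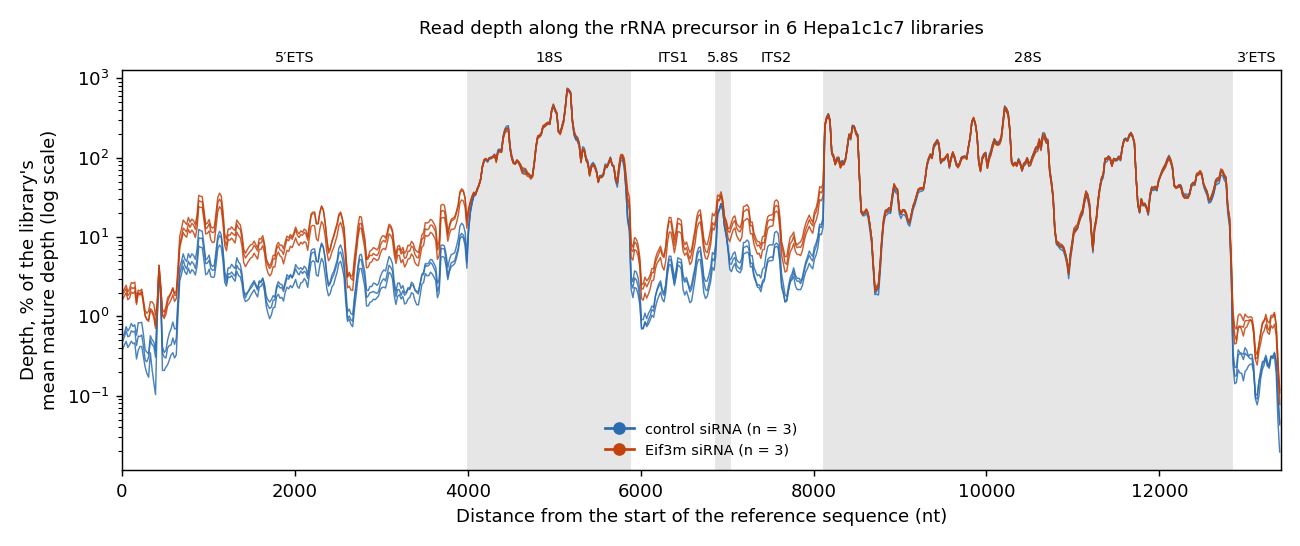
Depth along the rRNA precursor in 20-nt windows, as a percentage of each library's mean depth over 18S, 5.8S and 28S (log axis), against the distance from the start of the reference (nt); 1 line per library, 3 control and 3 Eif3m siRNA, mature segments shaded. The lines of the 2 groups separate over every spacer except at the narrow spike near 430 nt and run together over most of 18S and 28S.

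In Eif3m siRNA libraries all 4 spacers gained depth against mature rRNA, by a factor close to 3. Depth here is relative within a library, so more spacer RNA and less mature rRNA cannot be told apart. In bulk RNA, more spacer RNA per cell and more cells that hold it cannot be told apart either. Mean spacer depth was 2.71%, 3.90% and 3.33% of mean mature depth in control replicates 1, 2 and 3, and 11.2%, 7.88% and 9.88% in Eif3m siRNA replicates 1, 2 and 3. The groups did not overlap: the lowest Eif3m siRNA library stood above the highest control library, although control replicate 1 and Eif3m siRNA replicate 1 were each farthest from the other group. The log2 difference was 1.54 ± 0.18 (SE, as all SEs of ratios here from limma), with limma adjusted p = 0.0014 over 32 ratios of mean depths. The exact two-sided permutation test gave p = 0.1, the smallest that 3 against 3 libraries allow (adjusted p = 0.2), for each of the 16 ratios whose groups did not overlap, this one included. limma called 14 of the 32 ratios, 6 higher and 8 lower. Many of the ratios share regions, so these calls are not independent of each other.

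The 5′ETS, which is removed before and during 18S maturation, stood at 1.83%, 2.59% and 2.33% of 18S depth in controls and at 7.70%, 5.48% and 6.98% after knockdown. ITS1, whose cleavage parts the precursors of the small and the large subunit, stood at 1.65%, 2.25% and 2.06% of 18S depth in controls and at 6.76%, 4.63% and 5.88% after knockdown. In these 2 spacers on either side of 18S, and in ITS2 and the 3′ETS as well, replicate 2 of the control group was the highest control. Replicate 2 of the knockdown group was the lowest knockdown library in all 4. ITS2, between 5.8S and 28S, was the deepest spacer, at 5.20%, 7.50% and 6.01% of 28S depth in controls and at 20.2%, 14.1% and 17.4% after knockdown. The 3′ETS, which is cut off early, was the shallowest, at 0.234%, 0.321% and 0.297% of 28S depth in controls and at 0.981%, 0.723% and 0.850% after knockdown. The log2 differences of these 4 ratios ran from 1.46 ± 0.18 (ITS2) up to 1.59 ± 0.16 (3′ETS; SE, n = 3 per group), with limma adjusted p = 0.0014 each.

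**Figure D2:**
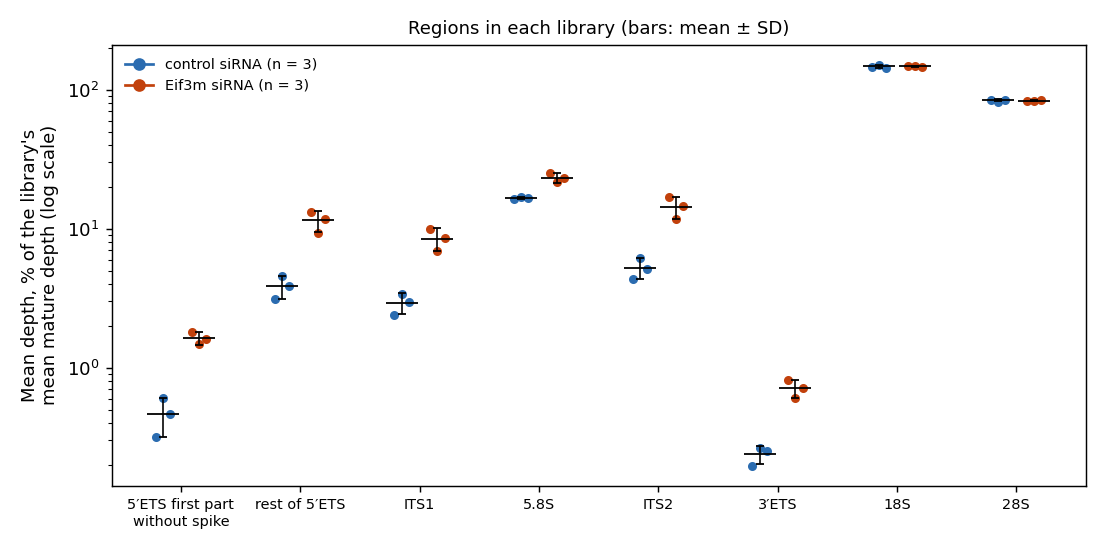
Mean depth of each region as a percentage of the library's mean mature depth (log axis); points are single libraries, 3 per group, and bars give the mean ± SD. Points of the groups are apart in all spacers and in 5.8S, where controls stood at 16.2% to 16.9% and Eif3m siRNA libraries at 21.5% to 25.2%, and overlap in 18S and 28S.

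Set against the library's mean mature depth, a relative measure, the depth added after knockdown was unequal from spacer to spacer. ITS2 gained 9.16 ± 1.56 percentage points of mature depth (SE), the rest of the 5′ETS 7.64 ± 1.21 and ITS1 5.55 ± 0.96. The first part of the 5′ETS gained 1.12 ± 0.11 and the 3′ETS 0.474 ± 0.065 points. These gains followed the depth that each spacer already had in controls, 5.22% in ITS2, 3.85% in the rest of the 5′ETS, 2.94% in ITS1, 0.631% in the first part and 0.238% in the 3′ETS. In proportion, the spacers therefore rose by similar factors, and no ratio between 2 spacers was called by limma. The log2 difference was 0.05 ± 0.04 for 5′ETS over ITS1 and 0.12 ± 0.07 for 3′ETS over ITS2. For ITS1 over ITS2 it was 0.07 ± 0.04 with groups that did not overlap, at 0.549, 0.554 and 0.583 in controls and 0.596, 0.585 and 0.589 after knockdown (limma adjusted p = 0.33).

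At single positions the rise was nearly without gaps. With each library scaled to its summed depth, all 3 Eif3m siRNA libraries lay above all 3 controls at all 994 positions of ITS1, all 1091 of ITS2, all 563 of the 3′ETS and 3971 of 4005 of the 5′ETS, against 51.8% of all 13400 positions. The 34 spacer positions without such a separation formed a single run, from 414 to 447. Ratios of group means at single positions varied little within a spacer: their central 90% lay between 1.31 and 1.46 (log2) in ITS2, between 1.35 and 1.51 in ITS1 and between 1.39 and 1.80 in the 5′ETS. At the deepest position of the 5′ETS, 3914, raw depth was 2246, 4109 and 2971 reads in controls and 12015, 7909 and 9820 reads after knockdown. The shallowest position of the 5′ETS, at 1686, showed the same separation at far lower depth, with 21, 33 and 37 reads in controls and 101, 82 and 98 after knockdown.

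In 100-nt bins, limma called 68 of 134 bins higher (50.7%) and 23 lower (17.2%) at an adjusted p under 0.05. The bins called higher were 63 of the 64 spacer bins, the 1 bin inside 5.8S and 4 bins across an end of a mature segment. The 33 bins of the rest of the 5′ETS were alike, with changes from 1.44 to 1.60 (log2 of scaled depth plus 1), as were the 9 bins of ITS1, from 1.35 to 1.49, and the 10 of ITS2, from 1.32 to 1.43. The 5 largest rises all fell in the first 600 nt, up to 1.91 ± 0.23 (SE) at 501 to 600, where scaled depth was 0.0056, 0.0117 and 0.0081 of the library mean in controls and 0.0327, 0.0273 and 0.0317 after knockdown. The next 4, at 101 to 200, 1 to 100, 201 to 300 and 301 to 400, rose by 1.80, 1.77, 1.73 and 1.65. The bins called lower lay in 18S (7 of 17), in 28S (15 of 46) and across the start of 28S, with the largest fall at -0.15 ± 0.04 (SE) in 4401 to 4500. The next 4, at 4301 to 4400 and 5401 to 5500 in 18S and at 8301 to 8400 and 10001 to 10100 in 28S, stood at -0.14, -0.14, -0.14 and -0.13. Shares of a fixed sum cannot all rise, and scaling to mature depth instead left 68 bins higher (50.7%) and 0 lower (0%), with 0 lower at an unadjusted limma p under 0.05 too. The lower calls numbered 5 without Eif3m siRNA replicate 1, 7 without control replicate 3, 13 without control replicate 1 and 14 without Eif3m siRNA replicate 3. At single positions the 2 scalings gave 17.7% and 1.49% of positions with all Eif3m siRNA libraries lower, and 51.8% and 53.9% with all higher. On summed depth, the share lower was 30.6% without control replicate 2 and 27.5% without Eif3m siRNA replicate 2, and fewer libraries leave fewer chances to overlap.

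**Figure D3:**
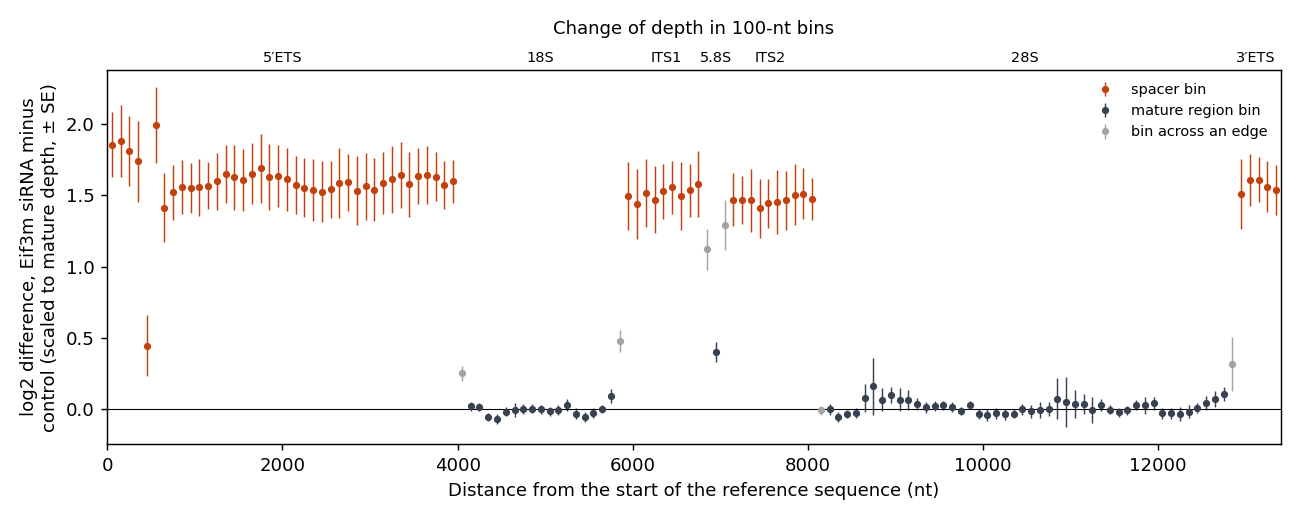
Difference of depth between Eif3m siRNA and control libraries (log2, scaled to mature depth) in 100-nt bins against the distance from the start of the reference (nt); points are limma estimates ± SE from 3 libraries per group, coloured by kind of region. Spacer bins lie between 1.41 and 1.99 except for 1 bin at 0.44, and 18S and 28S bins lie between -0.07 and 0.16.

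Whether the spacers also changed in shape was asked with each library scaled to its own spacer depth. Of 64 spacer bins limma called 0 higher (0%) and 1 lower (1.56%), with 8 higher at an unadjusted p under 0.05. The called bin was 401 to 500, whose depth was 0.558, 0.397 and 0.413 of mean spacer depth in controls and 0.174, 0.259 and 0.208 after knockdown, a log2 change of -1.09 ± 0.16 (SE, limma adjusted p = 0.0026). The largest change in the other direction was 0.46 ± 0.14 (SE) at 501 to 600, with limma adjusted p = 0.12. Depth in the 5′ over the 3′ part of a spacer, divided at its midpoint, did not pass either. That log2 difference was -0.01 ± 0.04 in the rest of the 5′ETS, -0.05 ± 0.05 in ITS1, -0.01 ± 0.06 in ITS2 and 0.01 ± 0.13 in the 3′ETS (SE, limma adjusted p of 0.51 or more). Across the 64 spacer bins, log2 depth correlated between any pair of libraries of the same group at 0.991 to 0.998 and between groups at 0.982 to 0.994 (Pearson's r, a description over bins that share their libraries and sequence).

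Steps inside the spacers gave the same picture at finer scale. Of the 8 steepest, chosen over both groups, 6 had overlapping groups. The rise at 3677 in the 5′ETS was 1.74, 1.71 and 1.91 (log2) in controls and 1.84, 1.85 and 1.77 after knockdown. The fall at 6003 in ITS1 was -1.02, -1.33 and -1.33 in controls and -1.17, -1.37 and -1.18 after knockdown. The other 2 lay in or at the edge of the first part of the 5′ETS, at 414 and 651, and both were smaller in all 3 Eif3m siRNA libraries.

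The first part of the 5′ETS lies upstream of the rise at 651, which lies near the place where the mouse precursor is known to be cut earliest. A narrow spike of depth, 40 nt wide at positions 412 to 451, stands inside it. The spike held 3.49%, 3.26% and 2.93% of mean mature depth in controls and 3.11%, 3.67% and 3.64% after knockdown, so the groups overlapped. The sequence around it stood at 0.316%, 0.601% and 0.467% in controls and at 1.82%, 1.48% and 1.60% after knockdown, with every knockdown library above every control. Spike over surroundings accordingly fell from 11.04, 5.43 and 6.28 in controls to 1.71, 2.48 and 2.27, a log2 difference of -1.76 ± 0.30 (SE, limma adjusted p = 0.0034). It was -1.46 without control replicate 1, whose surroundings were the shallowest, and limma still called it.

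**Figure D4:**
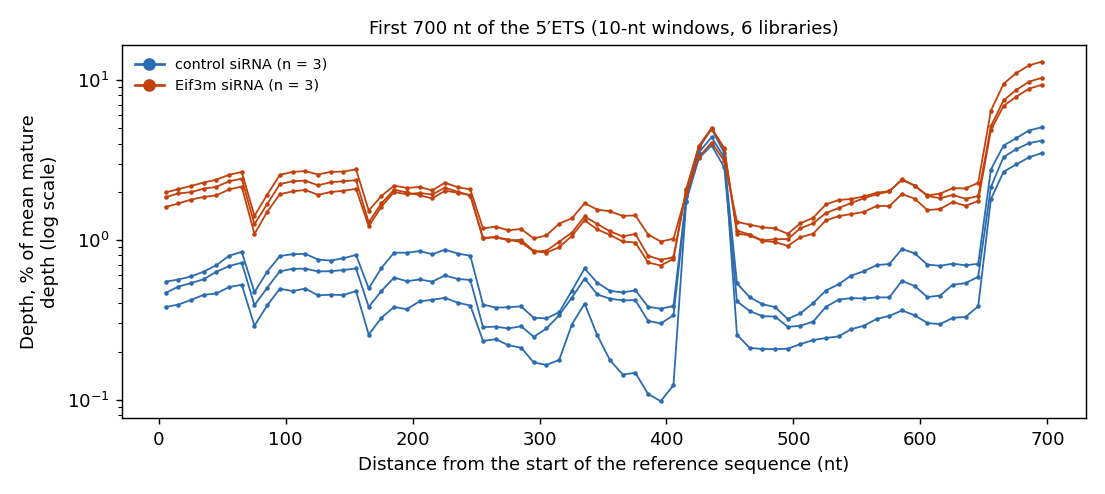
Depth in 10-nt windows from the start of the 5′ETS to 700 nt, as a percentage of mean mature depth (log axis), against the distance from the start of the reference (nt); 1 line per library, 3 control and 3 Eif3m siRNA. The groups are apart on both sides of the spike, meet at it, and are apart again after the rise at 651.

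Outside the spike, the first part rose at least as much as the rest of the 5′ETS. Its depth was 10.2%, 13.3% and 11.97% of that over the rest in controls and 13.7%, 15.8% and 13.5% after knockdown. These values did not overlap, but the log2 difference of 0.29 ± 0.12 (SE) did not pass (limma adjusted p = 0.11). It passed without control replicate 2 (0.38, limma adjusted p = 0.044) and with median depths (0.40, limma adjusted p = 0.038). The step at 651 itself, the 20 nt after it over the 20 nt before it, was 6.25-fold, 4.74-fold and 4.84-fold in controls and 3.64-fold, 3.47-fold and 3.42-fold after knockdown. All knockdown libraries lay below all controls, with a log2 difference of -0.58 ± 0.12 (SE, limma adjusted p = 0.0070).

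Depth just outside each mature end was compared with the interior of the same spacer. Such depth can come from precursors or from excised spacer fragments, which these data cannot tell apart. Over the 6 flanks, taken from 11 to 50 nt outside each end, no ratio was called by limma, and the groups overlapped in all 6. The flank before 18S was 2.53, 2.56 and 2.29 times as deep as the 5′ETS interior in controls and 2.40, 2.55 and 2.59 times after knockdown. The flank after 18S stood at 0.767, 0.885 and 0.830 of the ITS1 interior in controls and at 0.815, 0.816 and 0.821 after knockdown. The flank before 28S was 2.70, 2.56 and 2.87 times as deep as the ITS2 interior in controls and 2.74, 2.70 and 2.73 times after knockdown. The log2 differences of the 6 flanks ran from -0.02 ± 0.06 after 18S to 0.11 ± 0.09 after 28S (SE, limma adjusted p of 0.46 or more). These values leave flanks and spacer interiors without a called difference between them, which is not evidence that they moved equally.

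The steps from spacer to mature rRNA were smaller after knockdown at all 6 ends, and limma called each of them. Each step divides mature depth by depth of the adjacent spacer. These calls therefore overlap with those of spacers over mature segments and are not separate evidence. At the start of 28S, the 20 nt inside were 18.4, 14.4 and 15.8 times as deep as the 20 nt outside in controls and 5.27, 7.86 and 6.00 times after knockdown, a log2 difference of -1.36 ± 0.17 (SE, limma adjusted p = 0.0014). At the end of 28S the factor was 22.0, 12.4 and 16.9 in controls and 5.69, 7.78 and 6.42 after knockdown, a log2 difference of -1.34 ± 0.23 (SE, limma adjusted p = 0.0036). At the start of 18S it was 4.33, 3.10 and 3.85 in controls and 1.85, 2.10 and 1.83 after knockdown (-0.95 ± 0.13, SE, limma adjusted p = 0.0022). Around both ends of 28S and the start of 18S, every knockdown library thus had the shallower step.

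The end of 18S differed least. Its factor was 6.72, 5.01 and 5.63 in controls and 4.34, 4.45 and 4.15 after knockdown, a log2 difference of -0.41 ± 0.11 (SE, limma adjusted p = 0.026). This call was lost without control replicate 3 and without Eif3m siRNA replicate 1, 2 or 3 (-0.43, -0.42, -0.44 and -0.39, limma adjusted p of 0.054 to 0.093). The depth on the mature side of this end differed as well. Over the last 50 nt of 18S it was 15.5%, 17.4% and 16.1% of mean mature depth in controls and 36.6%, 25.9% and 30.1% after knockdown, 1.87-fold on average. The 50 nt were chosen after the profile was seen and this value was not tested.

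**Figure D5:**
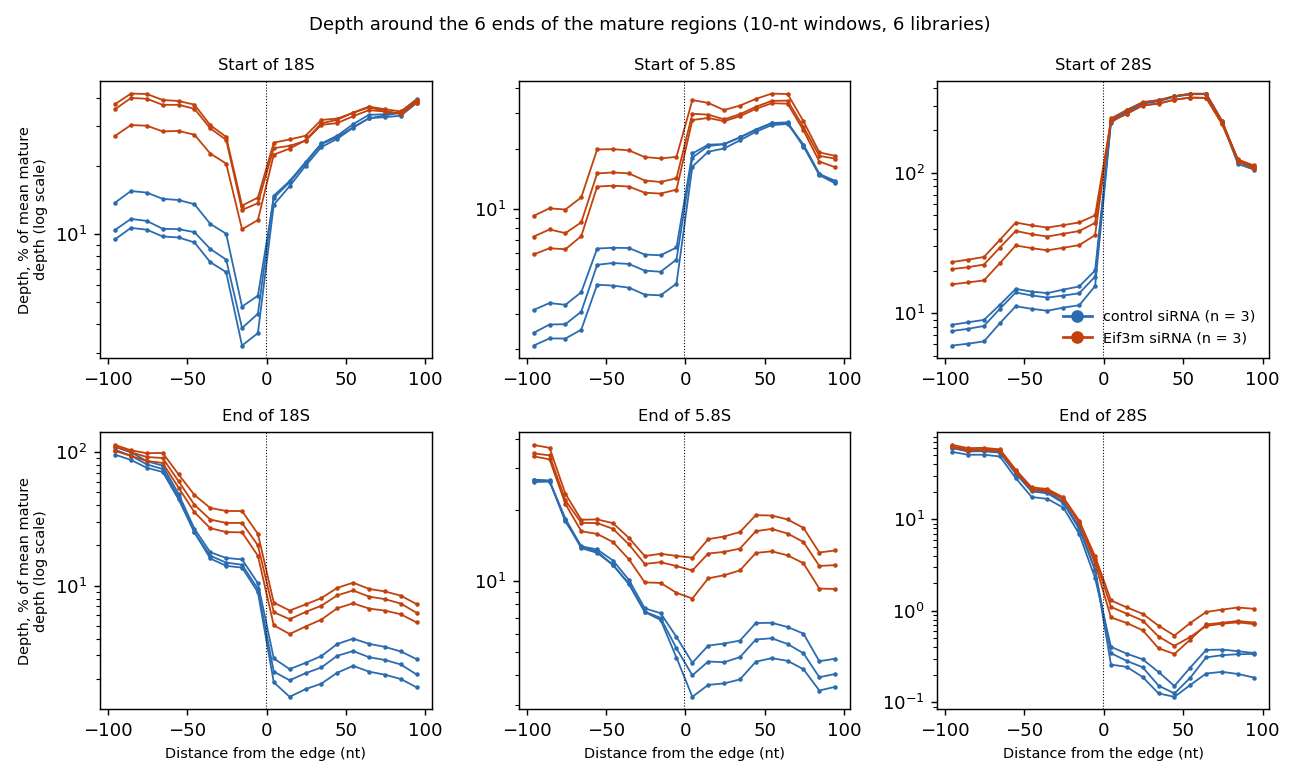
Depth around the 6 ends of the mature segments in 10-nt windows, as a percentage of mean mature depth (log axis), against the distance from the end (nt, dotted line at the end); 1 line per library, 3 control and 3 Eif3m siRNA. The groups are apart on the spacer side of every end; inside 18S they meet about 80 nt from either end, inside 28S they meet at once at its start, and at the end of 5.8S the knockdown lines pass into ITS2 with little fall (12.8% to 12.6% in replicate 1).

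On the mature side, the difference reached unequally far into the segments. At the start of 18S, 10-nt windows went from 1.68-fold at the first 10 nt to 1.05-fold at 70 to 79 nt, and groups overlapped from 80 nt on. From the start of 28S, where the first 10 nt already stood at 227% to 243% of mean mature depth, all windows up to 100 nt overlapped, with values of 0.957-fold to 1.03-fold. Before the end of 28S the windows of the last 100 nt were 1.08-fold to 1.38-fold, apart in all of them, and just beyond the end 3.23-fold. Before the end of 18S they rose from 1.14-fold, 71 to 80 nt inside, to 2.10-fold in the last 10 nt, and stood at 2.69-fold just outside.

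5.8S rRNA, a short rRNA that pairs with 28S in the large subunit, was the mature segment with the largest change. Its depth was 19.3%, 20.5% and 19.6% of that of 28S in controls and 30.2%, 25.8% and 27.4% after knockdown, a log2 difference of 0.49 ± 0.07 (SE, limma adjusted p = 0.0023). All 153 of its positions were higher in every knockdown library than in every control, on summed and on mature depth. Over all positions, the share was 51.8% on summed depth and 53.9% on mature depth. The step at its start was 4.47, 3.24 and 3.69 in controls and 1.91, 2.30 and 2.13 after knockdown (-0.84 ± 0.14, SE, limma adjusted p = 0.0032). At its end the step was 1.69, 1.33 and 1.42 in controls, and 0.936, 1.00 and 0.976 after knockdown, so that in knockdown libraries the last 20 nt of 5.8S and the first 20 nt of ITS2 were about as deep (-0.60 ± 0.10, SE, limma adjusted p = 0.0032). Depth over 5.8S can hold precursor reads, whose share was not measured. The mean depth of 5.8S was 16.6% of mature depth in controls, while ITS2 beside it stood at 5.22%. With mean spacer depth taken off the mature segments the log2 difference of 5.8S over 28S was 0.16 ± 0.05 (limma adjusted p = 0.054), and with the depth of the adjacent spacers taken off, a choice made after the data were seen, it was 0.02 ± 0.04 (limma adjusted p = 0.74). Such subtraction takes all spacer depth to be precursor that spans the mature segment, which was not tested.

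The mean depths of 18S and 28S relative to each other did not differ beyond the spread of the libraries. With depth scaled to mature depth, no bin wholly inside either was called, whereas bins across both ends of 18S were. 18S over 28S was 1.74, 1.84 and 1.70 in controls and 1.78, 1.78 and 1.74 after knockdown, a log2 difference of 0.01 ± 0.05 (SE, limma adjusted p = 0.92), which lay between -0.019 and 0.039 when any 1 library was left out. Of 64 bins inside mature segments, scaled to mature depth, limma called 1 higher (1.56%), the bin in 5.8S, and 0 lower (0%, and 0 at an unadjusted p under 0.05). The change in that bin was 0.40 ± 0.05 (SE). Bins across an end were not part of that count: on mature depth limma called 4001 to 4100, at the start of 18S, higher by 0.25 ± 0.05 and 5801 to 5900, at its end, higher by 0.48 ± 0.08 (SE). Changes in the 17 bins of 18S lay between -0.07 and 0.09 and those of the 46 bins of 28S between -0.05 and 0.16. The highest of them was at 8701 to 8800, a trough of 28S with 4.15%, 3.46% and 3.93% of mean mature depth in controls and 4.12%, 4.46% and 4.28% after knockdown, where the groups overlapped. ITS2 bin 7401 to 7500, at 3.83%, 5.92% and 4.13% in controls, stood at 14.3%, 10.0% and 12.2% after knockdown. limma called this ITS2 bin and not the one at 8701 to 8800, but the difference between this single pair was not tested.

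Single positions within 18S and 28S with groups that did not overlap were counted without a test. At any position, 1 of the 20 assignments of libraries to groups separates in a given direction, so the small shares in 28S are not read as differences. On mature depth, all knockdown libraries lay above all controls at 254 of 1877 positions of 18S (13.5%) and 195 of 4717 of 28S (4.13%), against 53.9% of all positions. Those of 18S lay chiefly at its ends, from 4006 to 4085 and from 5807 to 5882, with further runs from 4168 to 4229 and from 5693 to 5724. In 28S the longest runs, of 49 nt each, were 12737 to 12785 and 12789 to 12837 at its end, and runs of 22 nt and 21 nt lay in the trough around 8700. Positions with all knockdown libraries lower numbered 158 in 18S (8.42%), mainly from 4319 to 4380 and from 5387 to 5453. In 28S they numbered 41 (0.869%), against 1.49% of all positions.

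The change in cells was larger than that in liver for the spacers. Spacers over mature segments differed by 1.54 (log2) in cells and 0.67 in liver, and cells minus liver was 0.88 ± 0.24 (SE, limma adjusted p = 0.014 over 32 ratios). The step at 651 was smaller after knockdown in cells (-0.58) and larger in liver (0.86), and the first part without the spike over the rest of the 5′ETS moved by 0.29 in cells and -0.94 in liver. In liver that step was 2.27, 1.37 and 1.34 (log2) in controls and 2.44, 2.64 and 2.49 after knockdown. Liver spacers were shallow, at -9.72, -9.61 and -9.92 (log2) of mature depth in liver controls. RNA fraction, dose, time and source differ between these systems at once and cannot be told apart.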

How the data were processed

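Libraries came from a Clontech pico kit used without ZapR, per the labels' protocols. The authors deposited read depth, a coverage signal in whole numbers, for each position and library, unscaled. Per the submitters' processing notes, the tools were BWA 0.7.12 and SAMtools 1.3. Their options, the reference and any removal of duplicates were not given in the sources used here. Columns were matched to samples by the code in each title, with 0 columns unused; none of the cell columns had empty cells, and the 85 in liver columns were read as 0.

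Mean depths of regions gave 32 ratios per library. Differences were tested with limma 3.58.1 in R 4.3.3 (lmFit, eBayes) and exact permutation over 20 assignments, with Benjamini-Hochberg adjustment. Bins of 100 nt, scaled to summed depth as log2(depth + 1), were fitted with limma (trend, threshold 0.05, minimum mean depth 10), the 6 cell libraries apart from liver. Because bins share reads and the spacers of a library vary jointly, the adjusted p of a single bin is too small for 3 libraries per group. limma also draws the SE of each bin toward a trend over all bins, so it need not match the spread of that bin's own libraries. Bin 401 to 500, the spacer bin not called higher on summed depth, stood at 0.36 ± 0.25 (SE), with all 3 knockdown libraries above all controls. The fits were run on simulated data with independent errors, which cannot show how they behave where bins share reads. Regions and tests were chosen with earlier results of these data known. Bins were named by fixed rules: the 5 largest changes per direction among called bins, and exceptions within a region.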

Additional observations from a re-analysis of the deposited data

Results flagged for a closer look

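The following log2 changes differed between cells and liver by limma (adjusted p under 0.05 for 13 of 32 ratios, cells minus liver). For all spacers over all mature segments the difference was 0.88. Set against 18S, the 5′ETS gave 0.96 and ITS1 gave 0.99. Set against 28S, ITS2 and the 3′ETS gave 0.90 each, and 18S gave -0.29. Within the 5′ETS it was 0.74 for the first part over the rest, 1.23 for the same without the spike and -1.89 for the spike over its surroundings. For steps it was -1.44 at the rise in the 5′ETS, -0.63 at the start of 18S, -0.76 at the start of 5.8S and -1.01 at the start of 28S.

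With 1 library left out at a time, all 13 kept their direction, and the 3′ETS value fell as low as 0.72, with limma adjusted p up to 0.065. What sets the systems apart was not tested.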

How the results depend on the processing

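limma called 13 to 16 of the 32 ratios under every alternative. Spacers over mature segments stayed called in all, at 1.40 to 1.68 (log2) with 1 library left out. Edges from the 6 cell libraries alone gave no values: the first opening then fell at 651, not at 18S. Signs changed where differences were small, none of them called except the first. With median depths these were 0.36 for the first part over the rest of the 5′ETS (limma adjusted p = 0.046), 0.038 for the 5′ over 3′ part of that rest, -0.017 for that of the 3′ETS and 0.039 for the flank after 18S. With 10 reads added, 3′ETS over ITS2 was -0.037, and with spacer depth subtracted the 5′ over 3′ part of 28S was 0.057, or 0.056 with adjacent spacers subtracted. With 1 library left out, ranges were -0.019 to 0.039 for 18S over 28S, -0.115 to 0.094, -0.050 to 0.032, -0.030 to 0.0041 and -0.020 to 0.0097 for 5′ over 3′ part of the 3′ETS, ITS2, 28S and the rest of the 5′ETS, and -0.068 to 0.035, -0.020 to 0.064 and -0.033 to 0.051 for the flanks after 18S, before 18S and before 28S.

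Bins called lower were 0% when scaled to mature depth, 45.5% with median-of-ratios scaling, 0.746% without trend and 3.73% to 22.4% with 1 library left out, against 17.2%; single positions lower were 1.49% on mature depth and 17.9% to 30.6% with 1 left out. Shares of spacer bins called in the shape fit were 0.763% lower with 50-nt bins, 1.56% higher without trend, 0% lower without the spike's bins, and 0% to 1.56% higher and 1.56% to 3.13% lower with 1 left out. No bin in cells fell under the minimum depth, but single positions were shallow, down to 2, 8 and 7 reads in controls at 13397 in the 3′ETS.

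The replicate numbers did not pair the libraries: deviations of same-numbered libraries from their group means correlated at -0.82, -0.75 and 0.05. With the replicate block limma called 13 ratios, losing the end of 18S (-0.41, limma adjusted p = 0.063), kept spacers over mature segments (1.54), and called 4.69% of spacer bins higher and 3.13% lower in shape. It called 9 of the differences from liver.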
